A study of Mus musculus with 2 samples.

Results

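Imprinted genes were followed through spermatogenesis in single germ cells of the adult mouse testis. The 10 genes are Meg3, Rian, Mirg, H19, Grb10, Gnas, Sgce, Peg10, Peg3 and Impact, chosen by symbol with their levels in these cells already known, so their values are given as descriptions without tests. Of the 10, 9 are analysed among the 31053 genes of the table, and Rian is not analysed here. The study prepared 1 library from wild-type and 1 library from Zfp541-/- adult C57BL/6 testis, each by droplet capture of germ cells sorted by flow cytometry for tetraploid DNA content, per the extraction protocol. The sample titles name whole testis, and the cell table holds 333 RS.1, 619 RS.2 and 393 RS.3 round spermatids and 111 elongating spermatids (ES) of wild type, cells with haploid DNA that go against such a sort. ZFP541 is a zinc-finger protein of pachytene spermatocytes, the cells in which paired chromosomes recombine. Neither the deleted stretch of Zfp541, nor pooling of testes, nor the number of animals per library is stated in the labels.

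Imprinted genes are transcribed mainly from the maternal or the paternal copy, according to DNA methylation laid down at control regions in the parental germ line. In the male germ line the inherited marks are erased in the embryo and paternal marks are written before birth, so adult spermatocytes carry the paternal pattern on both copies. The control regions of the Dlk1-Dio3 region and of Igf2-H19 are methylated in sperm, and Meg3, Rian, Mirg and H19 are noncoding RNAs normally made from the maternal copy of those regions. The other 6 genes lie at control regions that are methylated in the egg. DNA methylation and parental origin were not measured in these libraries.

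The cell table assigned 8420 wild-type cells and 8833 cells of the library labelled Zfp541-/- to 15 stages and 25 clusters. The wild-type cells held 108612781 unique transcript molecules (UMIs, counts of captured 3' ends) with a median of 11246 per cell, and the others 119675250 with a median of 10905. The libraries cover different stages, so that both have at least 50 cells only in early (eP), mid (mP) and late (lP) pachytene. In those stages cells of the library labelled Zfp541-/- were 2.03, 2.35 and 2.57 times deeper by median UMIs. Zfp541 itself had a level of 28.1 CPM (UMIs of a gene per 1000000 UMIs of the group) in wild-type mP and 81.9 CPM in the other library, and in lP 35.8 and 70.6 CPM. Since 3' ends need not lie in the deleted part, this does not check the label. The libraries share 42 barcodes, 17 of them among the assigned cells.

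Meg3 (ENSMUSG00000021268) lies at chr12:109541001-109571726 on the plus strand of GRCm38, and Mirg (ENSMUSG00000097391) at chr12:109729764-109749460 on the same strand, each annotated as a long noncoding RNA. Between them lies Rian, at chr12:109603940-109661716. Dlk1, which codes for a membrane ligand related to Notch ligands and is normally made from the paternal copy, lies at chr12:109452823-109463336. H19 lies at chr7:142575529-142578143 on the minus strand. Grb10, an adaptor that dampens insulin and growth-factor signalling, lies at chr11:11930508-12038683 on the minus strand. Gnas, the stimulatory G-protein alpha subunit gene with several promoters, lies at chr2:174284320-174346744. Sgce, an epsilon-sarcoglycan gene at chr6:4674350-4747207, and Peg10, a gene derived from a retrotransposon at chr6:4747306-4760517, run apart from each other. Peg3, which codes for a zinc-finger protein, lies at chr7:6703892-6730431.

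The DNA before the starts of Meg3, Mirg, Dlk1 and Grb10 is shown because Meg3, Mirg and Dlk1 share 1 control region and Grb10 is the other member that differed over 4-fold between the libraries. Each line gives the 250 bases before a RefSeq start (GRCm38.p6, 5′ to 3′ on the gene's strand), with every CpG, the dinucleotide that carries DNA methylation, in capitals. RefSeq windows matched 6 of the 10 genes. The Mirg and Grb10 starts used here lie inside the genes as GENCODE annotates them, and so do their whole windows. Neither of these windows is thus DNA before the annotated gene, while those of Meg3 and Dlk1 are. RefSeq also gives a second start for Meg3 and for Grb10, whose windows are not printed.
Meg3, chr12:109540746-109540995, plus strand: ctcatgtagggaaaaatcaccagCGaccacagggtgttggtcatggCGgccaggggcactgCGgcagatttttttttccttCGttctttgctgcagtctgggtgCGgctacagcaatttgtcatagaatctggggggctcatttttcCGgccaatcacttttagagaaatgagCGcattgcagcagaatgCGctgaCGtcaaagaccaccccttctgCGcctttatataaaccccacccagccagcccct
Mirg, chr12:109734731-109734980, plus strand: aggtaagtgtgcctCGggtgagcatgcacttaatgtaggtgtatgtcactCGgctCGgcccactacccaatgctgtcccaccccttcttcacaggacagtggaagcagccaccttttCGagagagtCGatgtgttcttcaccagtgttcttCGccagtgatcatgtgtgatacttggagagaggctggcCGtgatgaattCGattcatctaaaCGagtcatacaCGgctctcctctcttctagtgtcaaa
Dlk1, chr12:109452573-109452822, plus strand: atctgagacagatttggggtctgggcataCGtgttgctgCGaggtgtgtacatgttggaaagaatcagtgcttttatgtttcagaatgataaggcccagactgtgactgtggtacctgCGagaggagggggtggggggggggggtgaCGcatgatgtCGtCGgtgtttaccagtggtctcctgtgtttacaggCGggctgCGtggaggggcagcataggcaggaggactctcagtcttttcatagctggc
Grb10, chr11:12037421-12037670, minus strand: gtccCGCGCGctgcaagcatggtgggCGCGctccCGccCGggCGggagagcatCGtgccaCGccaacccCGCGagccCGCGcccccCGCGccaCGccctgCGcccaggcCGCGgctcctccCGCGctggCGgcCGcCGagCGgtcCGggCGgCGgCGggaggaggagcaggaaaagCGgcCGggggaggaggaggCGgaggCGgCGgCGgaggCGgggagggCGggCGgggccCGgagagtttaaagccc

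The Meg3, Mirg and Dlk1 windows hold 10, 10 and 8 CpGs, against a median of 6 over the 32851 windows of the same length, of which 92.1% hold at least 1. The Grb10 window holds 40 CpGs, and 98.7% of windows hold fewer. The windows of the second starts differ from these, with 0 CpGs for Meg3 (chr12:109545148-109545397) and 8 for Grb10 (chr11:12027972-12028221). The hexamer TGCCGC, which the imprint-keeping protein ZFP57 binds when methylated, was searched on both strands. It has 1 match in the Meg3 window printed, 0 in the window of the second Meg3 start and 0 in the 3 other windows printed, and 8.68% of all windows hold it. Such a match is a description of the letters only.

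Meg3 and Mirg are also hosts of microRNAs, which pair with their targets mainly through a short stretch called the seed. RefSeq places 3 mature microRNAs inside Meg3 and 26 inside Mirg, with 0 seeds in both sets. The microRNAs themselves were not measured, and the sequences are shown to make plain that the hosts carry different ones. The seed, bases 2 to 8, is in capitals. The 2 Mirg microRNAs printed are those that share a seed.
miR-1906, in Meg3: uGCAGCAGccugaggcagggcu
miR-770-5p, in Meg3: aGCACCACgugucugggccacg
miR-770-3p, in Meg3: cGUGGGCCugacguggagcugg
miR-453, in Mirg: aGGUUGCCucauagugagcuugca
miR-496a-5p, in Mirg: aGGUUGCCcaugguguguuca

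Meg3 was close to absent from the wild-type library and abundant in pachytene cells of the library labelled Zfp541-/-. Over all stages it had 10 UMIs in 10 of 8420 wild-type cells, and 6453 UMIs in 3135 of 8833 cells of the other library. Of those 6453 UMIs, 97.2% were in mP and lP cells, which held 79.9% of that library's UMIs.

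Across the stages of the library labelled Zfp541-/-, Meg3 had its lowest levels just before its highest. Its CPM was 19.3 in Diff.Spg1, 10.7 in Diff.Spg2 and 6.68 in Diff.Spg3, the 3 stages of differentiating spermatogonia. It was 10.5 in preleptotene (pre.L), 7.04 in leptotene (L), 3.61 in zygotene (Z) and 2.45 in eP cells. It then stood at 56.1 in mP and 75.4 in lP. The 95% Poisson intervals of mP (54.0 to 58.3) and lP (72.9 to 77.9) overlapped neither each other nor those of any other stage, while each neighbour in the order of the other stages overlapped. All intervals given here cover counting error only, and with 1 library per genotype the spread between animals is unknown.

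In the wild-type library Meg3 had 0 UMIs in eP, 4 in mP, 1 in lP, 1 in diplotene (D), 0 in the first division (MI) and 1 over all spermatid stages. These are 0.41 CPM in mP and 0.13 CPM in lP. Its other 3 UMIs fell 1 each on 8 Diff.Spg1, 28 Diff.Spg2 and 39 Diff.Spg3 cells, too few to compare with the spermatogonia of the other library. The 0 in eP came from 230 cells and allows up to 3.34 CPM.

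Folds given here are ratios of CPM as measured, while log2 ratios have 0.5 UMIs added to each library, so the 2 differ where UMIs are few. In mP Meg3 was 136-fold higher in the library labelled Zfp541-/-, with a counting interval of 53.2 to 501. The log2 ratio was 6.92 (interval 5.73 to 8.97). In lP the wild-type value rests on 1 UMI, and the ratio of 601 has an interval of 108 to 23756. The log2 ratio there was 8.65 (interval 6.75 to 14.54).

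**Figure D1:**
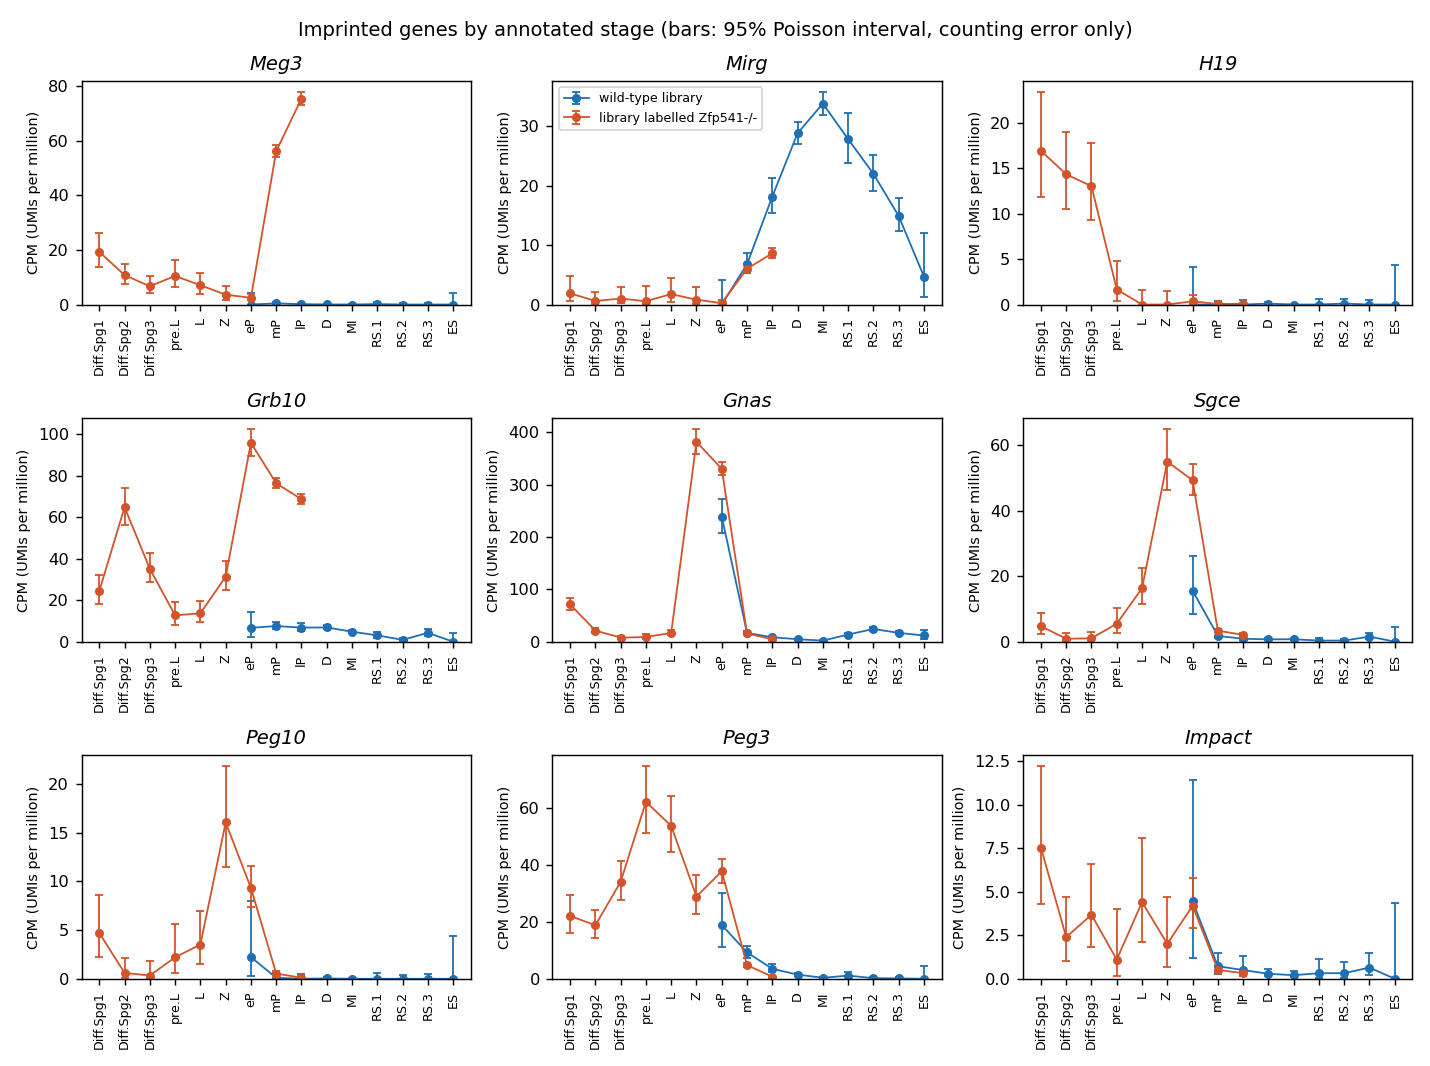
CPM of the 9 measured imprinted genes (vertical axes) by annotated stage (horizontal axes), for the wild-type library (blue) and the library labelled Zfp541-/- (orange), for stages with at least 50 cells in that library; bars are 95% Poisson intervals. Meg3 stands at 56.1 and 75.4 CPM in mP and lP of the orange series and near 0 throughout the blue one, while Mirg is highest in MI of the blue series.

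The clusters that make up the pachytene stages show the same order in finer steps. In the library labelled Zfp541-/-, Meg3 stood at 3.095 and 1.61 CPM in clusters 12 and 16 of eP. In the mP clusters 4, 11, 7 and 2 it stood at 20.7, 43.4, 65.2 and 73.0 CPM. In the lP clusters 5, 0 and 22 it stood at 73.9, 73.6 and 111 CPM.

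Cluster 4 thus had less than each other mP cluster, and cluster 22 more than every other pachytene cluster, with intervals that did not overlap. Wild-type values were at most 1.24 CPM in each of the 9 clusters, and 0 in 5 of them. The 0 values of clusters 12 and 16 came from 75 and 155 cells and allow up to 10.1 and 4.99 CPM. These limits lie above the values of the other library there, so no difference can be read in clusters 12 and 16. Wild type also had 0 UMIs in clusters 7, 0 and 22. With 3 UMIs taken as its limit, Meg3 was 42.4-fold, 118-fold and 79.4-fold higher there in the other library. The counting intervals of these ratios reached down to 34.4-fold, 96.1-fold and 64.0-fold. Meg3 is among the 10 leading genes of cluster 2, which was defined on these same cells.

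Per cell, Meg3 was spread over most late pachytene cells of the library labelled Zfp541-/-. In lP 78.7% of cells had a Meg3 UMI, with a median of 2 and a maximum of 10 UMIs, and 51.1% had 2 or more. In mP 57.6% of cells had one, and the maximum was 9. In wild type the shares were 0.33% of 1207 mP cells and 0.12% of 827 lP cells. In eP cells of the library labelled Zfp541-/- the share was 1.80% at a median of 6641.5 UMIs, against medians of 18665 in mP and 23690 in lP. The part of free RNA in these shares was not tested.

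When every cell was thinned to 3000 UMIs, 15.5% of mP and 20.5% of lP cells of that library had a Meg3 UMI, and 0.79% of eP cells did. After thinning, wild type had 0.17% of 1200 mP cells and 0 of 825 lP cells. The difference between the libraries was thus present at equal depth.

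**Figure D2:**
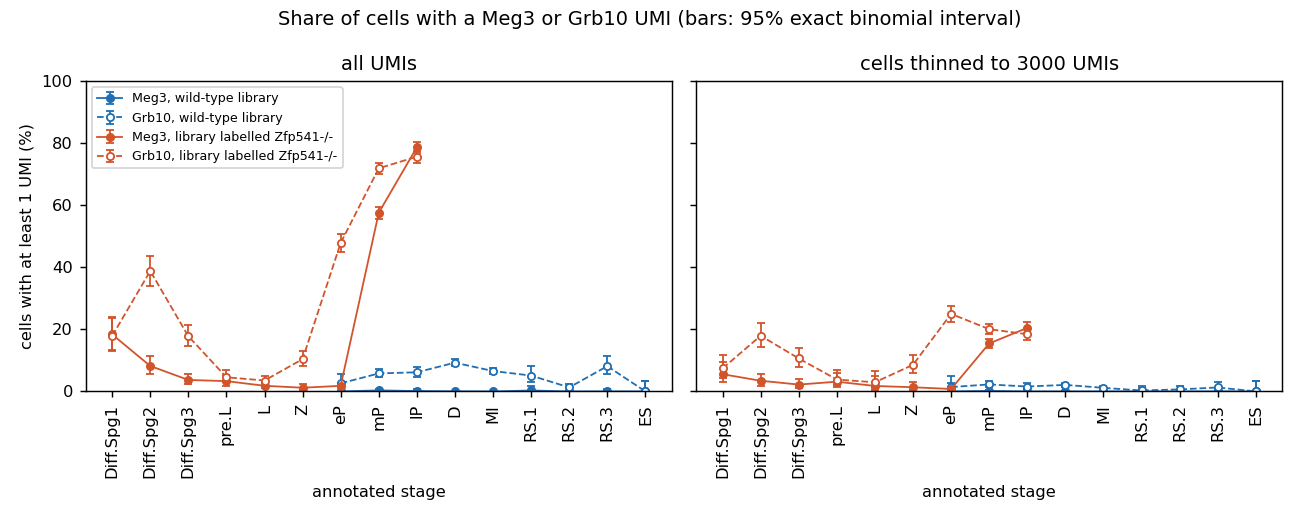
Percent of cells with at least 1 UMI of Meg3 (filled) or Grb10 (open) by stage, with all UMIs (left) and after thinning to 3000 UMIs per cell, leaving out shallower cells (right); bars are 95% exact binomial intervals and only groups of at least 50 cells are drawn. At equal depth Meg3 goes from 0.79% of eP cells to 20.5% of lP cells in the library labelled Zfp541-/-, while Grb10 is already at 24.98% in eP.

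Mirg, the farther partner in the Dlk1-Dio3 region, had another pattern: it was highest in wild-type MI, and in lP it was lower in the library labelled Zfp541-/-. In wild type its CPM was 0, 6.79 and 18.2 in the eP, mP and lP stages, 28.8 in D and 33.8 in MI. It was 27.9 in RS.1, 22.0 in RS.2, 14.9 in RS.3 and 4.71 in ES. MI was the highest, with an interval (31.9 to 35.8) above that of D (27.0 to 30.8), and D and RS.1 overlapped.

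In the library labelled Zfp541-/-, Mirg was at or below 1.88 CPM in every stage up to eP, then 6.03 in mP and 8.62 in lP. The log2 ratio was -0.18 in mP (interval -0.56 to 0.24) and -1.08 in lP (interval -1.35 to -0.79), so Mirg was lower in lP, where Meg3 was much higher. By cluster, wild-type Mirg was 9.92, 18.0 and 22.4 CPM in the lP clusters 5, 0 and 22, against 9.10, 8.17 and 8.46 CPM. Its intervals were apart in clusters 0 and 22 and overlapped in cluster 5. Beside these values, the 4 elongating spermatid markers (Prm1, Prm2, Tnp1, Tnp2) summed to 213 CPM in wild-type lP and 0.021 CPM in the other library, and the part of free spermatid RNA in the Mirg values was not tested.

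Dlk1 had 0 UMIs in wild-type pachytene cells and a low level in the library labelled Zfp541-/-. It had 1.80 CPM in mP and 6.53 CPM in lP, at least 5.84-fold and at least 17.4-fold higher. Within lP it was 3.76, 8.61 and 13.4 CPM in clusters 5, 0 and 22. Dlk1 was highest in Diff.Spg1 (47.0 CPM) and Diff.Spg2 (38.2 CPM) of the same library, and had 0 UMIs in pre.L.

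**Figure D3:**
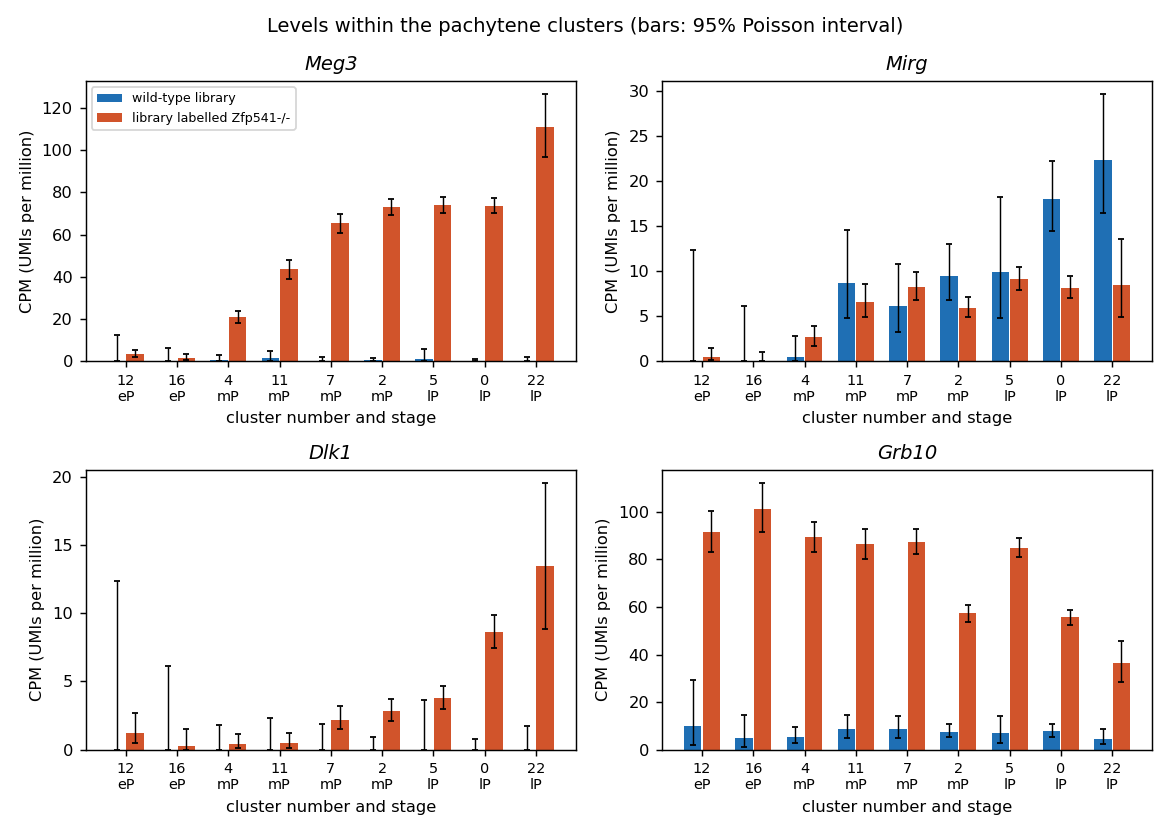
CPM of Meg3, Mirg, Dlk1 and Grb10 (vertical axes) in the 9 pachytene clusters, ordered by the authors' pseudotime within eP, mP and lP (horizontal axes); bars show the wild-type library (blue) and the library labelled Zfp541-/- (orange) with 95% Poisson intervals. Meg3 in orange is at 20.7 CPM in cluster 4, between 65.2 and 73.9 CPM in clusters 7, 2, 5 and 0 and at 111 CPM in cluster 22, Grb10 in orange is already high in cluster 12, and Mirg is higher in blue in clusters 0 and 22.

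Most other genes of the region were at or near 0 in pachytene. Rtl1, a retrotransposon-derived gene antisense to microRNA hosts, and Dio3, which codes for a deiodinase of thyroid hormone, had 0 UMIs in mP and lP of both libraries. The unnamed transcripts Gm34081, Gm26906, Gm26945 and B830012L14Rik had 0 UMIs in wild type and at most 12 UMIs in a stage of the other library. Gm26906 runs antisense to the end of Meg3, and had 2 UMIs in lP of that library, where Meg3 had 3532. The noncoding 4930511J24Rik, beyond Mirg, had 9.78 CPM in wild-type lP and 1.92 CPM in the other library.

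Outside the region, Begain on the Dlk1 side had 1.13 and 1.51 CPM in lP. Ppp2r5c, a phosphatase subunit gene on the Dio3 side, had 161 CPM in wild-type lP and 247 CPM in the other library. In lP, Meg3, Dlk1 and Ppp2r5c were thus higher in the library labelled Zfp541-/- with intervals apart, and Mirg and 4930511J24Rik were lower.

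**Figure D4:**
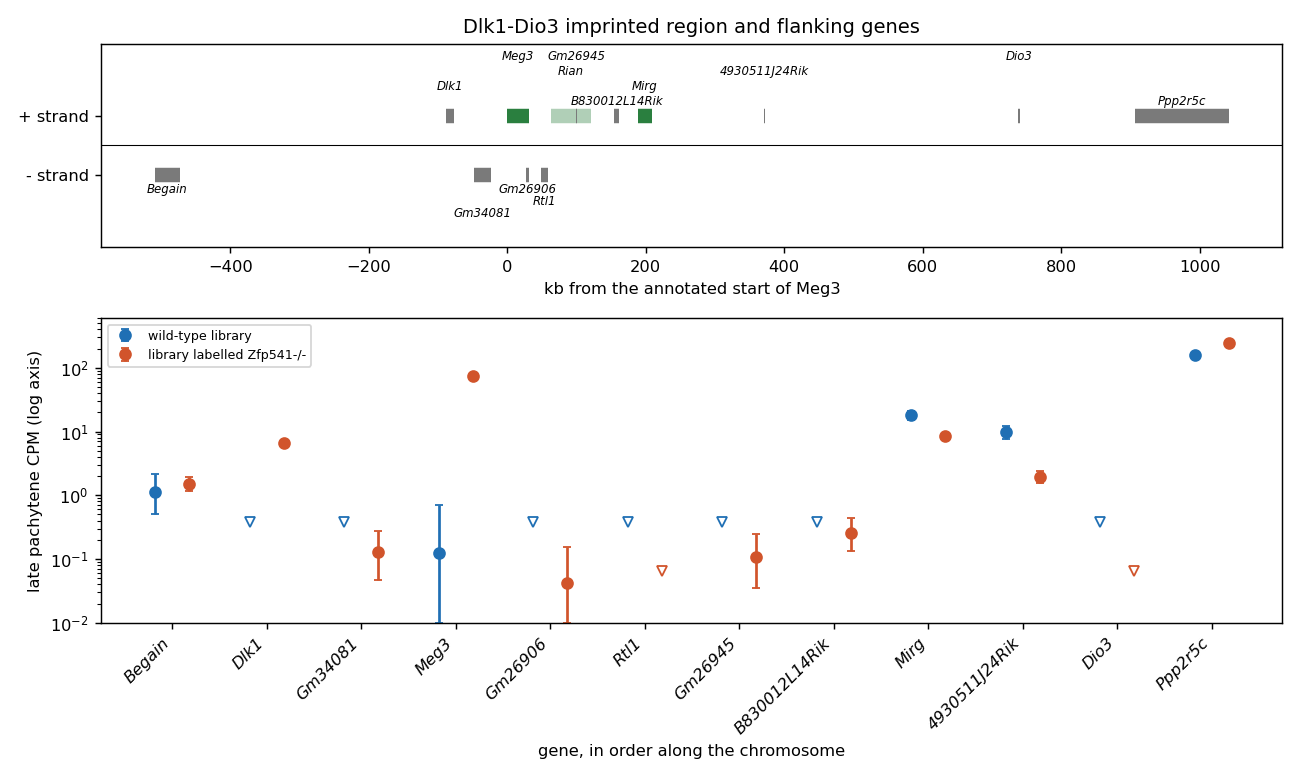
Top, genes of the Dlk1-Dio3 region by strand, in kb from the start of Meg3, with Meg3 and Mirg in dark green and Rian, which is not analysed here, in pale green. Bottom, CPM in late pachytene on a log axis with 95% Poisson intervals (cut at 0.01); open triangles mark 0 UMIs and stand at the level of 3 UMIs. Meg3 is at 75.4 CPM in the library labelled Zfp541-/- and 0.13 CPM in wild type, and Mirg is at 8.62 and 18.2 CPM.

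H19, a noncoding RNA whose control region is also methylated in sperm, did not accompany Meg3. In the library labelled Zfp541-/- its CPM was 16.9 in Diff.Spg1, 14.3 in Diff.Spg2 and 13.03 in Diff.Spg3. It was 1.65 in pre.L, 0 in L and Z, and 0.35, 0.061 and 0.085 in the 3 pachytene stages (eP, mP, lP, in this order here and in what follows). The 3 spermatogonial values overlapped and stood apart from the later ones. The 0 of L, in 882 cells, allows up to 1.32 CPM. Wild type had 5 H19 UMIs in all its cells, 0 of them in pachytene.

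Grb10, among the genes whose control regions are methylated in the egg, also differed widely between the libraries, and from an earlier stage. In wild type its CPM was 6.67, 7.51 and 6.77 in the eP, mP and lP stages, 6.83 in D, 4.80 in MI, 3.02 in RS.1, 0.86 in RS.2, 4.24 in RS.3 and 0 in ES. The eP to D values overlapped. In the library labelled Zfp541-/- it was 24.4 in Diff.Spg1, 64.8 in Diff.Spg2, 35.1 in Diff.Spg3, 12.7 in pre.L, 13.6 in L and 31.3 in Z. It then stood at 95.8, 76.3 and 68.6 in the 3 pachytene stages, and these 3 intervals did not overlap each other.

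The wild-type library also had Grb10 before meiosis, at 66.9 CPM in Diff.Spg2 and 63.8 CPM in Diff.Spg3, each from 6 UMIs in fewer than 50 cells. Grb10 was 10.2-fold higher in mP of the library labelled Zfp541-/- (interval 8.06 to 12.99) and 10.1-fold higher in lP (interval 7.75 to 13.5). Its log2 ratios were 3.34 (interval 3.01 to 3.70) and 3.33 (interval 2.95 to 3.76).

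Early pachytene was compared only by cluster number, because the leading genes of clusters 12 and 16 include 1 spermatogonial marker (Sohlh2) and 0 pachytene markers. Those of the mP and lP clusters also include 0 pachytene markers, but 0 of any other class listed. Summed over eP, the 8 spermatogonial markers were at 83.4 CPM in wild type, with 6 of them at 0. In the library labelled Zfp541-/- they were at 204 CPM in eP and 2449 CPM in Diff.Spg1. The 7 leptotene-zygotene markers summed to 9191 CPM in wild-type eP and 7983 CPM in the other library. The 7 pachytene markers summed to 3112 and 3367 CPM in eP, against 6534 and 6859 CPM in mP. The name of clusters 12 and 16 is thus unsettled, and eP is used in this text only as the authors' label. Grb10 was 9.09-fold higher in cluster 12 (91.4 against 10.1 CPM) and 20.3-fold higher in cluster 16 (101 against 4.99 CPM), where the wild-type values rest on 3 UMIs each. The intervals of these folds were 3.09 to 44.3 and 6.90 to 98.9. The log2 ratios were 2.96 (interval 1.63 to 5.47) and 4.12 (interval 2.79 to 6.63).

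Meg3 in the same clusters was at 3.095 and 1.61 CPM, so Grb10 was already high in clusters where Meg3 was at its lowest. Grb10 showed no steady fall as Meg3 rose. In the library labelled Zfp541-/- it stood between 86.3 and 101 CPM in clusters 12, 16, 4, 11 and 7. It was then at 57.3, 84.9, 55.6 and 36.3 CPM in clusters 2, 5, 0 and 22, the last with 102 cells. Meg3 was at 73.0, 73.9, 73.6 and 111 CPM in those same clusters.

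Cell by cell, Grb10 and Mirg were found about as often in cells with Meg3 as in cells without. Among thinned lP cells of the library labelled Zfp541-/-, 18.8% of those with a Meg3 UMI and 18.3% of those without had a Grb10 UMI. In mP the shares were 17.9% and 20.5%, with overlapping 95% exact binomial intervals. For Mirg in lP they were 3.27% and 2.91%, also overlapping.

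Gnas, Sgce and Peg10 had their height in the cells named Z and eP, in both libraries as far as covered. Gnas in the library labelled Zfp541-/- was at 71.0, 21.2, 7.69, 8.81 and 16.7 CPM from Diff.Spg1 to L, then at 382 in Z and at 330, 15.6 and 4.37 in the 3 pachytene stages. The Z and eP values did not overlap each other or any other stage. In wild type Gnas was at 239 CPM in eP, 16.7 in mP, 8.40 in lP, 4.61 in D and 1.97 in MI, and between 11.8 and 24.3 in the spermatid stages. The 24 wild-type Z cells gave 476 CPM from 30 UMIs.

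Between the libraries Gnas stood at 402 and 428 CPM in cluster 12 (log2 interval -0.17 to 0.37) and at 16.7 and 15.6 CPM in mP (log2 interval -0.34 to 0.16), and both intervals include 0. It was higher in cluster 16 of the library labelled Zfp541-/- (log2 0.35, interval 0.05 to 0.68) and lower in lP (log2 -0.95, interval -1.35 to -0.52). The mP clusters went opposite ways, with a log2 ratio of 0.74 in cluster 2 (interval 0.26 to 1.30) and -0.81 in cluster 7 (interval -1.48 to -0.04). Without cells that held a somatic marker UMI the ratio in mP was -0.87. In the lP clusters it was -1.67, -0.34 and -1.27 in clusters 5, 0 and 22, and the interval of cluster 0 includes 0. Counts are for the whole Gnas gene, so transcripts from its several promoters cannot be told apart. Its antisense partner Nespas has counts of its own.

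Sgce in the library labelled Zfp541-/- was between 0.90 and 16.3 CPM from Diff.Spg1 to L, and stood at 55.0 in Z and at 49.3, 3.34 and 2.07 in the 3 pachytene stages. In wild type it was 15.6, 1.75 and 0.88 in the 3 pachytene stages. Its neighbour Peg10 was at 16.1 in Z, 9.32 in eP, 0.53 in mP and 0.11 in lP of the library labelled Zfp541-/-, and had 2 UMIs in wild-type eP. The Z and eP values of Sgce overlapped, and those of Peg10 just did.

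Sgce was higher in clusters 12 and 16 of the library labelled Zfp541-/-, with log2 ratios of 1.39 (interval 0.42 to 2.81) and 1.18 (interval 0.18 to 2.62). Its ratios summed over mP (0.90, interval 0.21 to 1.75) and lP (1.15, interval 0.14 to 2.59) were also above 0, at levels under 10 CPM in both libraries. In each of the 7 single mP and lP clusters the interval includes 0. For Peg10 the log2 ratio in cluster 12 was 1.43, with an interval of -0.53 to 7.33. Gnas and Sgce are leading genes of cluster 12 and Gnas of cluster 16, ranked after the grouping by fold over all other cells of both libraries. Whether these genes took part in the grouping of the cells is not known.

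Peg3 had its height earlier, at the start of meiosis. In the library labelled Zfp541-/- it was 22.1, 18.8 and 34.1 CPM in the spermatogonial stages, 62.2 in pre.L, 53.7 in L, 28.9 in Z and 37.7, 4.80 and 0.73 in the 3 pachytene stages. The pre.L and L values overlapped. In wild type it was 18.9, 9.26 and 3.51 in the 3 pachytene stages and 1.46 in D, and at most 1.11 from MI on.

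Between the libraries Peg3 was higher in clusters 12 and 16 of the library labelled Zfp541-/- and lower in its mP and lP, each summed over clusters. Its log2 ratio was 1.52 in cluster 12 (interval 0.17 to 4.03), 0.84 in cluster 16 (interval 0.10 to 1.79), -0.95 in mP (interval -1.31 to -0.58) and -2.28 in lP (interval -3.04 to -1.50). The fall was not seen in every cluster. In cluster 4 of mP the log2 ratio was -0.16 (interval -0.70 to 0.46). In cluster 22 of lP, with 4 UMIs in each library, it was 0.09 (interval -2.33 to 2.52). In the 5 other mP and lP clusters the interval was below 0. Summed over mP or lP, Peg3 was under 10 CPM in both libraries, and in lP cells thinned to 3000 UMIs its log2 ratio was -0.95. Impact, which codes for a regulator of translation control, was at most 7.52 CPM in any stage. Its log2 ratios of -0.56 in mP and -0.77 in lP had intervals that included 0.

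**Figure D5:**
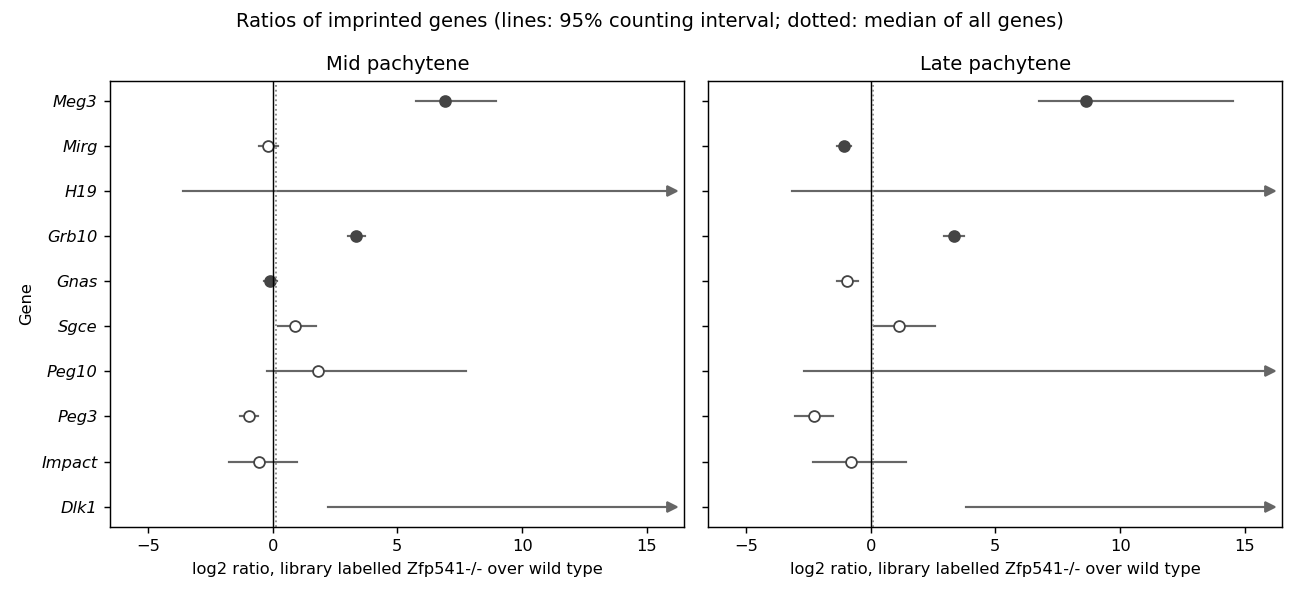
log2 ratio of the library labelled Zfp541-/- over wild type (horizontal axis) for the 9 measured genes and Dlk1 (vertical axis) in mid and late pachytene. Filled points have at least 10 CPM in the higher library, open points less; lines are 95% counting intervals, arrows are unbounded, no point is drawn where a library had 0 UMIs, and the dotted line is the median of all genes. Meg3 and Grb10 stand to the right in both stages, and Mirg is left of 0 in late pachytene.

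Set against all genes, most of the 9 were too low in pachytene to be compared. Genes were counted by the log2 ratio with 0.5 UMIs added. In mP 3 of 9 (Meg3, Grb10, Gnas) had at least 10 CPM in the higher library. Of them 2, Meg3 and Grb10, were at least 2-fold higher in the library labelled Zfp541-/-, against 15.0% of 7701 genes, and 0 were at least 2-fold lower, against 10.6%. In lP 3 of 9 (Meg3, Grb10, Mirg) had that level. Of these, 2 were at least 2-fold higher, against 17.4% of 7635 genes, and 1, Mirg, was at least 2-fold lower, against 14.3%.

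At 4-fold, Meg3 and Grb10 were higher in both stages, against 6.79% of genes in mP and 8.71% in lP. In cluster 12, 4 of the 5 genes with that level (Grb10, Sgce, Peg10, Peg3) were at least 2-fold higher, against 14.4% of 7915 genes. In cluster 16, 2 of 4 (Grb10, Sgce) were, against 20.4% of 7881 genes. At 4-fold by that ratio only Grb10 was higher in these clusters, against 4.52% of genes in cluster 12 and 5.52% in cluster 16. By CPM as measured Peg10 was 4.00-fold higher in cluster 12, from 1 UMI in wild type. Since the members were picked with these levels known, nothing is read from the shares. The median log2 ratio of all genes was 0.15 in mP, 0.11 in lP, 0.10 in cluster 12 and 0.28 in cluster 16.

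Other imprinted genes stood apart between the libraries in both directions, with medians near 0 and counts to be read against those of all genes. Of 65 further imprinted genes listed, 63 were measured, and 15 in mP and 14 in lP had at least 10 CPM in the higher library. In mP 4 of 15 were at least 2-fold higher in the library labelled Zfp541-/-, against 15.0% of all genes, and 3 lower, against 10.6%, with a median log2 ratio of -0.06. In lP 3 of 14 were higher, against 17.4%, and 3 lower, against 14.3%, with a median of -0.14.

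Phactr2, which codes for an actin and phosphatase regulator, was at 0.93 and 95.2 CPM in mP and at 1.50 and 133 CPM in lP. It is a leading gene of clusters 5 and 7. Ppp1r9a, a neuronal actin scaffold gene, was at 1.44 and 10.5 CPM in mP, and Cobl, an actin nucleator gene next to Grb10, at 0.50 and 17.3 CPM in lP. In the other direction, Sfmbt2, a Polycomb-related gene, was at 40.3 and 2.93 CPM in mP and at 58.2 and 2.41 CPM in lP. Trappc9, a vesicle-traffic gene, was at 23.9 and 4.20 CPM in lP.

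Of the genes that write or read the imprint and had at least 10 CPM, Hells and Dnmt1 were higher in the library labelled Zfp541-/-. Of 12 listed, 6 had at least 10 CPM in mP and in lP. Hells, a chromatin remodeller needed for DNA methylation, was at 37.4 and 213 CPM in mP and at 24.2 and 154 CPM in lP. Dnmt1, the maintenance methyltransferase, was at 33.4 and 72.3 CPM in mP and at 31.7 and 57.5 CPM in lP. These are folds of 2.16 in mP and 1.81 in lP. Trim28, Zfp445, Ctcf and Uhrf1 were within 2-fold of each other in the 2 libraries in both stages. Under 10 CPM, Dnmt3b was at 2.98 and 8.87 CPM in mP and at 2.01 and 7.85 CPM in lP. Dnmt3a and Ctcfl had 0 UMIs in wild-type mP and 42 and 35 in the other library, with intervals of the ratio above 0. In lP they had 0 UMIs in wild type and 16 and 8 in the other library, with intervals that include 0. The intervals of Zfp57 include 0 in both stages, and Dppa3 had 0 UMIs. Dnmt3l went the other way, from at most 4 UMIs in a library.

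The genes whose levels followed Meg3 most closely over the 18 combinations of stage and library with at least 50 cells were Ina, Map6d1, Fads1, Ankrd29 and Bves. Their Pearson correlations of log2(CPM + 1) with Meg3 were 0.967, 0.963, 0.959, 0.957 and 0.955, among 13246 genes. Ina, a neuronal intermediate filament gene, was at 0.21 and 56.1 CPM in mP and at 0.13 and 136 CPM in lP. Grb10 had a correlation of 0.78 and rank 321, Dlk1 0.67 and rank 1075, and Mirg -0.40. These are descriptions, since 9 of the 18 points come from each library and share its depth.

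Markers of somatic testis cells were low in mP and lP cells, and those of Sertoli cells were higher in the library labelled Zfp541-/-. The 6 Leydig cell markers summed to 1.85 and 2.38 CPM in wild-type mP and lP, and to 1.09 and 0.55 CPM in the library labelled Zfp541-/-, where Cyp11a1 and Insl3 were at 0. The 7 Sertoli cell markers summed to 12.3 and 6.27 CPM in wild type and to 30.8 and 12.0 CPM in the other library, with 0 and 2 of the 7 at 0 there, against 2 and 4 in wild type. Peritubular, endothelial and macrophage markers each summed to at most 1.29 CPM in mP and lP of the library labelled Zfp541-/-. The 7 pachytene markers summed to 6534 and 7353 CPM in wild type and to 6859 and 7830 CPM in the other library. With cells that had any somatic marker UMI left out, the Meg3 log2 ratio was 7.12 in mP and 8.44 in lP.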

How the data were processed

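Droplet 3' RNA-seq libraries, 1 per genotype, were analysed, so no test between genotypes was possible and no replicate spread is known. Per the submitters' processing notes, reads were processed with Cell Ranger 3.1.0 on mm10 and cells with Seurat 3.2.0, and which gene annotation was used there is not stated. The deposited matrices hold raw UMI counts per gene and barcode. The deposited cell table gives stage, cluster, the percent of mitochondrial UMIs and a pseudotime score, as the authors made them. Cells outside that table were left out, and no doublet caller was run; cells above the 95th percentile of UMIs were left out in an alternative.

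UMIs were summed per stage or cluster and library with Python 3.11.15, numpy 2.4.6, scipy 1.17.1 and pandas 2.3.3, and divided by the group's UMIs for CPM, with exact Poisson intervals of 95%. Log2 ratios used 0.5 added counts and exact conditional binomial intervals. Shares of cells have exact Clopper-Pearson intervals. Groups needed 50 cells. Fold counts used genes with at least 10 CPM in the higher library. Where a library had 0 UMIs, 3 UMIs were taken as its limit. The interval code was tested on simulated data. Median UMIs per cell of the compared stages ran from 3275 to 23690.

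The members and lists were chosen with earlier results of these data known. All members are named, then genes of the Dlk1-Dio3 region with a neighbour on either side, other imprinted genes at least 4-fold different in mP or lP, and the 5 genes most like Meg3. Positions are from GENCODE on GRCm38, the assembly of mm10. CPM is not scaled by length, so levels are not compared between genes.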

Additional observations from a re-analysis of the deposited data

Results flagged for a closer look

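For 2 genes some log2 ratios of the library labelled Zfp541-/- over wild type were above 0 in clusters named eP. Others were below 0 later, and the counting intervals of both excluded 0. Peg3 had log2 ratios of 1.52 in cluster 12 and 0.84 in cluster 16, then -0.95 in mP and -2.28 in lP. In cluster 4 of mP and cluster 22 of lP its intervals include 0. Gnas had log2 ratios of 0.35 in cluster 16 and -0.95 in lP, but with no steady order: it was 0.74 in cluster 2 of mP and -0.34 in cluster 0 of lP, where the interval includes 0. The lP stage is made up differently in the libraries, with 107, 486 and 234 wild-type cells in clusters 5, 0 and 22 against 884, 959 and 102. The differences between stages were not tested, because each genotype has 1 library.

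Barcodes outside the cell table, which no comparison above uses, also held RNA of these genes. In the library labelled Zfp541-/- the 2747 such barcodes gave 46.8 CPM of Meg3, 58.3 of Grb10, 65.9 of Gnas, 13.6 of Peg3, 6.59 of Sgce, 5.65 of H19, 3.30 of Impact and 1.32 of Peg10. The 4219 such wild-type barcodes gave 0.35 CPM of Meg3, 5.38 of Grb10, 15.1 of Gnas and 1.09 of Peg3. Mirg went the other way, at 23.9 CPM in these wild-type barcodes and 6.31 CPM in those of the other library. The barcodes of the library labelled Zfp541-/- had a median of 1072 UMIs and of 19.5% mitochondrial UMIs, those of wild type 4400 UMIs and 0.64%. The authors' cut-offs were 1000 for gene number and 10% for mitochondrial share. Inside both lay 3492 of these wild-type barcodes and 440 of the others. What part of the RNA in them came from intact cells was not tested.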

How the results depend on the processing

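No paired analysis was possible because each genotype has 1 library, and for the same reason no library could be left out. Of 170 alternative log2 ratios for the 9 measured genes and Dlk1 in mP and lP, 164 lay within the counting interval of the reported value and 6 outside, and none of the called directions turned. Where a library had 0 or few UMIs the interval is wide or unbounded, so lying within it says little. In mP the alternatives for H19 ran from -1.35 to 1.26 and those for Dlk1 from 2.71 to 5.16, all counted as within. Meg3 ranged from 6.12 to 7.13 in mP and from 7.15 to 8.64 in lP, and Grb10 from 3.22 to 3.53 and from 3.14 to 3.64. The count of genes at least 2-fold higher was 2 in each stage under the alternatives run, except with no CPM minimum, where it was 3. Outside the interval were Mirg in mP at 0.32 and Gnas in mP at -0.50, both without cluster 2, an alternative chosen after seeing the data. The others were Gnas in mP at -0.87 without cells that held a somatic marker UMI, and Gnas, Sgce and Peg3 in lP at -1.97, 4.12 and -0.95 in cells thinned to 3000 UMIs, where few UMIs remain. Depth limits what can be said of wild-type eP, with 230 cells of 3275 median UMIs, and of genes below about 1 CPM.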

Other observations

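Of the 63 other imprinted genes measured, 32 had at least 10 CPM in some stage, and their highest stages were scattered over spermatogenesis. The genes named here were chosen after their values were seen. Ascl2, a transcription factor gene of the placenta, was highest in Diff.Spg2 of the library labelled Zfp541-/- at 67.2 CPM, and Phlda2, a placental growth restrainer, in Diff.Spg1 at 56.4 CPM. Kcnq1ot1, the noncoding RNA of their shared domain, was highest in eP of that library at 336 CPM. Cdkn1c, a cell cycle inhibitor gene of the same domain, was highest in wild-type ES at 292 CPM. Ascl2, Phlda2, Kcnq1ot1 and Cdkn1c thus had their highest levels in 4 different stages.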
